A study of Mus musculus with 8 samples.

Results

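The EGF receptor system of the mouse colon was examined through 10 genes: 8 ligands (Areg, Ereg, Btc, Hbegf, Egf, Tgfa, Nrg1 and Epgn), the receptor Egfr, and Errfi1, an inhibitor induced by receptor signalling. They were chosen by gene name on the array, which gave 22 of 41174 probes and 10 of 19440 named genes. Their colon RNA was compared on Agilent 2-colour arrays, 1 for each of 8 male mice. The first group was 4 Mdr1a-/- mice whose colonic histological injury score was high, and the second was 4 arrays labelled FVB/N, wild type, whose score was low. Mdr1a-/- mice lack the efflux transporter gene Abcb1a on the FVB/N background and develop colitis. All mice were 21 to 24 weeks old and on the AIN-76A control diet. Genotype and injury score change together, and the mice were picked by their score, so the effects of genotype and score cannot be told apart. Each value is log2(sample / reference), where the reference is a common pool of small intestine, colon, kidney, liver and fetal RNA of Swiss mice. A fold change is Mdr1a-/- minus the arrays labelled FVB/N on that scale, so a positive one means higher in Mdr1a-/- mice.

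None of the 10 genes was called different between the groups at an adjusted p under 0.05 (limma, Benjamini-Hochberg over all probes). Of all probes 1.53% were called higher in Mdr1a-/- mice and 1.45% lower. Areg, the gene for amphiregulin, had a fold change of 1.26 ± 0.83 over all 8 arrays (SE, limma adjusted p = 0.553). It was 4.88-fold higher in Mdr1a-/- mice when replicate 2 of the second group was left out, and was then called. That replicate was singled out after its high Areg value was seen. On that replicate Areg, Hbegf and Errfi1 were each far above all 7 other arrays. Of 19 immediate early genes, 6, Egr1, Fos and Atf3 among them, were also over 1 above all other arrays there, and 8 were not highest on that array. Of the Egfr probes, those annotated to the full-length transcript had fold changes of 0.83 and 0.58, and those annotated to the short transcript had 0.08 and 0.01. None of these passed, and the contrast between them was picked after values were seen, so no p is given for it. In the authors' deposited table the same probes gave 0.42 and 0.22, and 0.21 and 0.18.

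EGF receptor ligands are made as membrane-bound precursors, and metalloproteases such as ADAM17 shed them from the cell surface. Amphiregulin, epiregulin, betacellulin, HB-EGF, epigen, TGF-alpha and EGF bind the EGF receptor, which then signals through RAS, RAF, MEK and ERK, while the neuregulin encoded by Nrg1 binds ERBB3 and ERBB4. ERK signalling induces immediate early transcription factors within minutes and also induces its own brakes, among them ERRFI1 (also called MIG6), the ERK phosphatase DUSP6 and the Sprouty proteins. In the intestine this system drives epithelial proliferation and repair after injury, and amphiregulin is made by epithelial, stromal and immune cells. In whole colon RNA, fewer cells of a type and less RNA per cell cannot be told apart.

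The promoters of Areg and Errfi1 are shown because both genes were high on the same array. RefSeq windows for the GRCm38.p6 assembly, running from 250 bases before to 50 bases after a gene start, were held for 7 of the 10 genes, in 9 windows. The cyclic AMP response element TGACGTCA, capitalised below, was found in 2 of these 9 windows, with its first base at -61 from the start of Areg and at -51 from a start of Errfi1. The Areg window is chr5:91139349-91139648 and the Errfi1 window is chr4:150854820-150855119, both on the plus strand.
Areg: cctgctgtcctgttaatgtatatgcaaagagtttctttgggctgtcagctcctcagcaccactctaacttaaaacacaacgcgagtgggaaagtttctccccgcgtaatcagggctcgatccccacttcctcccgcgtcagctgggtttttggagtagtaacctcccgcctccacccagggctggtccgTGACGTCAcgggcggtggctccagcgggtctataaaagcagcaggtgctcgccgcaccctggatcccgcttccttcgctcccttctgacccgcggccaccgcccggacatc
Errfi1: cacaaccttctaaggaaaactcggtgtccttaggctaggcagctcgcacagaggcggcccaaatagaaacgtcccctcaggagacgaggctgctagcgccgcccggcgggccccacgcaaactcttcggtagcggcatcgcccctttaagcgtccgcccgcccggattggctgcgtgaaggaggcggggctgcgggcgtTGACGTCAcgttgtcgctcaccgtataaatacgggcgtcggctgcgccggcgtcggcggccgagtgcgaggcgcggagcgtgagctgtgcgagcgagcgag
This element occurred in 1.79% of 32851 promoter windows of the same length. It was absent from the windows of Btc and Epgn, which were also highest on that array, by 0.28 and 0.02. For Hbegf and Ereg, also highest there, no window was held. Any link between the element and that array was not tested. The search covered both strands, and the element reads the same on each. The AP-1 motif TGANTCA, the STAT motif TTCNNNGAA and a 10-base form of the NF-kB site were found in 0 of the 9 windows, against 7.81%, 8.3% and 1.63% of all windows. None of these motif searches overlapped another in the 9 windows, since only the cyclic AMP response element was found. A match or its absence describes these letters only.

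The disrupted gene, Abcb1a, did not fully separate the groups. Its log2 ratio was -0.89, -0.95, -0.70 and -0.97 in Mdr1a-/- mice, against -0.80, 0.01, -0.49 and -0.62 on the arrays labelled FVB/N. Replicate 1 of the arrays labelled FVB/N lay among the Mdr1a-/- mice, and the others of its group lay above them. The probe was above background on 3 Mdr1a-/- arrays and 4 arrays labelled FVB/N. The probe of Abcb1a had a fold change of -0.40 ± 0.19 (SE, limma adjusted p = 0.362) on these arrays, against -1.62 in the authors' deposited table (adjusted p = 9.75e-05). The labels' protocol names the slides of each group, and it names the slide of 3 of the 4 Mdr1a-/- files but of 0 of the 4 files labelled FVB/N. The second group is therefore called the arrays labelled FVB/N throughout, and each direction below rests on the labels. The arrays held both epithelial genes, such as Epcam and Krt8, and neutrophil genes. Of the marker lists, 3 of 7 neutrophil genes and 1 of 6 macrophage genes were called higher in Mdr1a-/- mice, against 1.53% of all probes. Of the enteric neuron and glia genes 1 of 6 was called lower, against 1.45% of all probes. Calls were made for 0 of 8 epithelial, 0 of 6 fibroblast, 0 of 5 smooth muscle, 0 of 5 adipose and 0 of 5 pancreatic acinar genes. The same held for 0 of 7 mast cell genes and 0 of 6 genes of type 2 innate lymphoid and regulatory T cells. Genes not called were not thereby unchanged: the median fold change was -1.12 for adipose, -1.71 for pancreatic, 0.53 for fibroblast and -0.47 for smooth muscle genes.

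Replicate 2 of the arrays labelled FVB/N stood apart for the genes described here more than for the array as a whole. It was the highest of the 8 arrays for 6 of the 10 genes (Areg, Ereg, Btc, Hbegf, Epgn and Errfi1) and for 11.7% of all probes. The margin was 0.02 for Epgn, 0.11 for Ereg and 0.28 for Btc. This array was singled out with its Areg value known, so these counts are a description only. It exceeded every other array by more than 1 on the log2 scale for 3 of the 10 genes and for 92 of all probes, or 0.223%. Its correlations of log2 ratios across all probes with the other 3 arrays of its group were 0.705 to 0.779, and the 8 arrays gave 0.678 to 0.802 within a group. Of its probes 67.0% were above background, the lowest of the 8 arrays, where the highest reached 86.3%. Its mean over 5 adipose genes was 2.10, highest of the 8 arrays for 5 of 5 genes, and over 5 pancreatic acinar genes it was 1.53, highest for 4 of 5. Other arrays were also high: the adipose mean was 1.49 on replicate 3 and 0.88 on replicate 1 of the arrays labelled FVB/N, and the pancreatic mean was 0.75 on replicate 1 of the Mdr1a-/- mice and 1.05 on replicate 3 of the arrays labelled FVB/N. The part of these marker genes in the values below was not tested. Fold changes of Areg, Hbegf, Epgn, Ereg, Errfi1 and the variant 1 probes of Egfr are given with and without it.

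**Figure D1:**
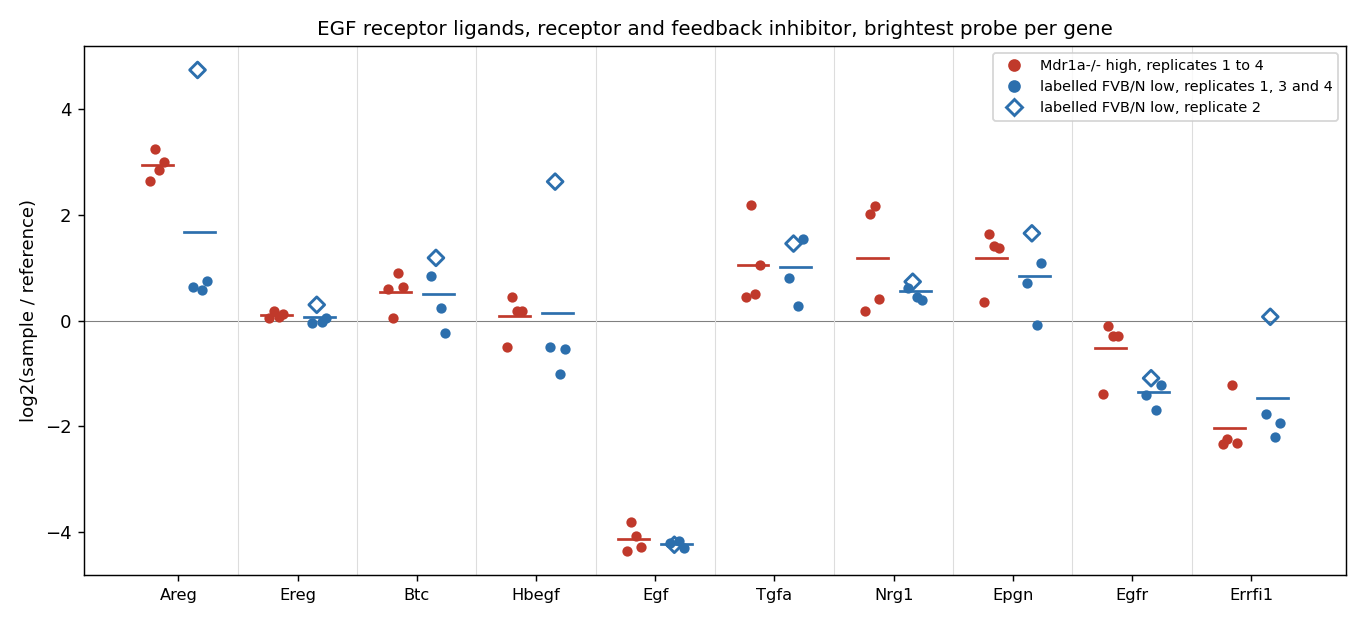
Log2(sample / reference) of the brightest probe of each gene on every array, with Mdr1a-/- mice in red left of the arrays labelled FVB/N in blue, and short lines for group means (n = 4 each). The open diamonds are replicate 2 of the arrays labelled FVB/N, which is the top point of all 8 for Areg (4.74), Hbegf (2.63) and Errfi1 (0.07).

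Among the ligands, Areg had the widest spread between arrays. Its log2 ratio (probe A_52_P482897) was 2.64, 3.24, 2.85 and 3.01 in Mdr1a-/- mice, against 0.63, 4.74, 0.57 and 0.74 on the arrays labelled FVB/N. All 4 Mdr1a-/- mice thus lay within a narrow range, well above 3 of the arrays labelled FVB/N and below the remaining one. The net Cy3 intensity before normalization placed the groups likewise, at 5907, 7209, 6183 and 7441 in Mdr1a-/- mice and 1712, 13780, 1451 and 1934 on the arrays labelled FVB/N, while the net Cy5 intensity of the reference stayed between 1059 and 2304. The group means were 2.93 ± 0.25 in Mdr1a-/- mice and 1.67 ± 2.05 on the arrays labelled FVB/N (SD, n = 4 each). The fold change of 1.26 ± 0.83 did not pass (SE, limma adjusted p = 0.553), and its 95% interval ran from -0.60 to 3.13.

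Without replicate 2 of the arrays labelled FVB/N, the fold change of Areg was 2.29 ± 0.18 (SE, limma adjusted p = 0.00411), or 4.88-fold higher in Mdr1a-/- mice with a 95% interval of 3.69-fold to 6.45-fold. The remaining arrays labelled FVB/N averaged 0.65 ± 0.09 (SD, n = 3), and no Mdr1a-/- mouse overlapped with them. Replicate 2 was singled out with its Areg value known, so the larger fold change and smaller spread are not separate support. In that fit 1 of the 10 genes was called higher and 0 lower, where 0.979% of all probes were called higher and 0.996% lower. The dates in the names of the deposited arrays fell on 3 days, numbered in order and called scan days here. Scan day 2 held replicates 1 and 2 of Mdr1a-/- mice and replicates 1 and 3 of the arrays labelled FVB/N. Scan day 1 held only replicate 4 of the Mdr1a-/- mice. Scan day 3 held replicate 3 of the Mdr1a-/- mice and replicates 2 and 4 of the arrays labelled FVB/N. Within scan day 2 the fold change was 2.34. Within scan day 3, which held the array that stood apart and a single Mdr1a-/- mouse, it was 0.11. A fit with scan day as a block gave 1.45 (limma adjusted p = 0.613). The authors' deposited table gives 1.61 for this probe (adjusted p = 0.115).

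**Figure D2:**
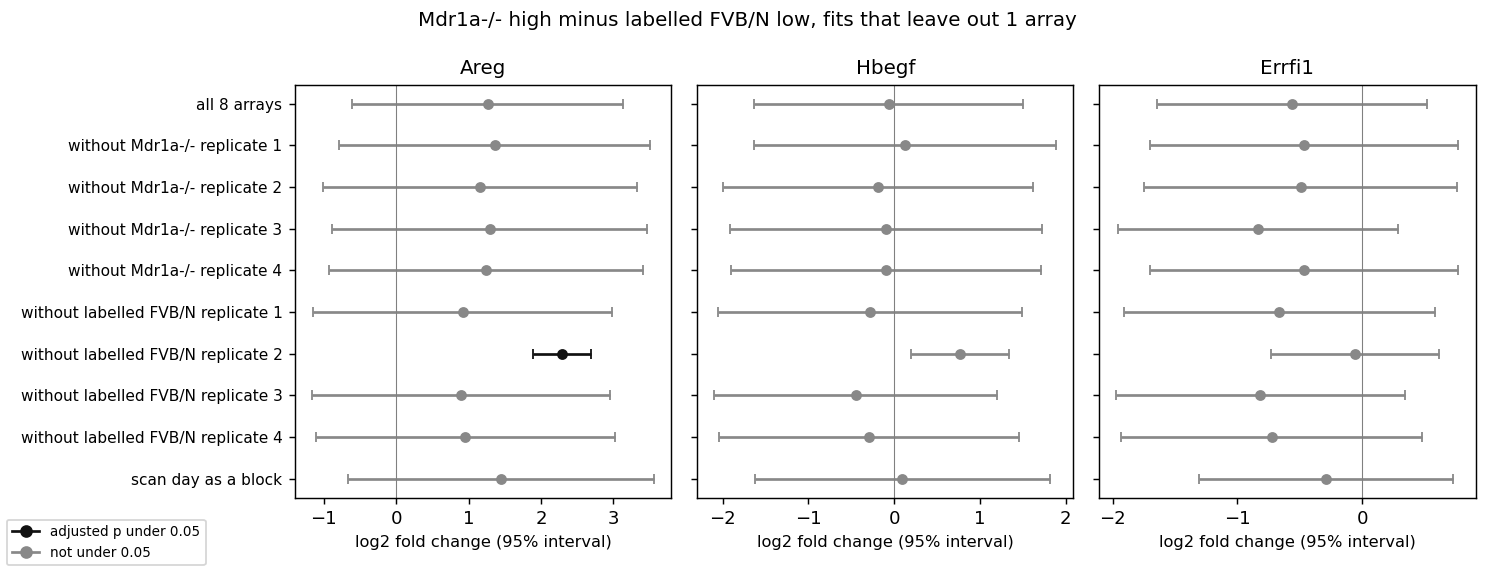
Log2 fold changes of Areg, Hbegf and Errfi1 (Mdr1a-/- minus arrays labelled FVB/N) with 95% intervals, for all 8 arrays, for each fit without 1 array, and with scan day as a block. Only the Areg fit without replicate 2 of the arrays labelled FVB/N, at 2.29, passed the threshold (black).

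Hbegf encodes HB-EGF, a ligand induced by injury and by ERK signalling itself. Its log2 ratio (probe A_51_P181565) was -0.49, 0.45, 0.18 and 0.18 in Mdr1a-/- mice, against -0.50, 2.63, -1.01 and -0.54 on the arrays labelled FVB/N. Replicate 2 of the arrays labelled FVB/N was 2.18 above the highest of the other 7 arrays. Without it, the lowest Mdr1a-/- mouse, replicate 1, lay just above the highest remaining array labelled FVB/N. The fold change was -0.06 ± 0.70 (SE, limma adjusted p = 0.981) over 8 arrays and 0.76 ± 0.25 (SE, limma adjusted p = 0.193) without that array, and neither passed. The authors' deposited table gives 0.61 for Hbegf (adjusted p = 0.481).

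Of the 10 genes, 0 had groups that did not overlap on the brightest probe, where 10.3% of all probes did. Without replicate 2 of the arrays labelled FVB/N, 2 of the 10, Areg and Hbegf, had groups that did not overlap, where 14.8% of all probes did.

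Ereg, Areg, Btc and Epgn lie next to one another on chromosome 5, as consecutive protein-coding genes in the order Epgn, Ereg, Areg and Btc. Epgn, the gene for epigen, had 0.35, 1.63, 1.40 and 1.36 in Mdr1a-/- mice, against 0.70, 1.65, -0.08 and 1.09 on the arrays labelled FVB/N (probe A_51_P187491). The groups overlapped, with 3 Mdr1a-/- mice close to the highest array labelled FVB/N. Its fold change was 0.35 ± 0.39 (SE, limma adjusted p = 0.758). It moved with single arrays, being 0.62 without replicate 2 of the arrays labelled FVB/N, 0.040 without their replicate 3, 0.63 without replicate 1 of the Mdr1a-/- mice and 0.20 without their replicate 2, and passed in none of these fits.

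Ereg, the gene for epiregulin, hardly varied between arrays on its brighter probe (A_51_P157223). That probe ranged from 0.05 to 0.19 in Mdr1a-/- mice and from -0.05 to 0.30 on the arrays labelled FVB/N, with a fold change of 0.04 ± 0.13 (SE, limma adjusted p = 0.938) and a 95% interval of -0.26 to 0.34. Without replicate 2 of the arrays labelled FVB/N it was 0.11. The dimmer probe (A_51_P171215), above background on 2 Mdr1a-/- arrays and 3 arrays labelled FVB/N, varied more, with 0.01, 0.26, -0.37 and 0.62 in Mdr1a-/- mice, against -0.16, 1.10, 0.35 and 0.33 on the arrays labelled FVB/N. Replicate 2 of the arrays labelled FVB/N was its highest array by 0.48, and the fold change was -0.28 ± 0.29 (SE) over 8 arrays and -0.044 without that array. Btc, the gene for betacellulin, had 0.59, 0.04, 0.91 and 0.63 in Mdr1a-/- mice, against 0.84, 1.18, 0.23 and -0.23 on the arrays labelled FVB/N (probe A_52_P672689). These ranges overlapped almost wholly, and the fold change was 0.04 ± 0.31 (SE, limma adjusted p = 0.975). Probe A_51_P138429 of Btc was above background on 1 of 8 arrays, so its fold change of -0.39 ± 0.25 (SE) was measured at the level of background.

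The other 3 ligand genes did not separate the groups either. Tgfa, the gene for TGF-alpha, ranged from 0.45 to 2.19 in Mdr1a-/- mice and from 0.27 to 1.54 on the arrays labelled FVB/N (probe A_52_P555423), with a fold change of 0.03 ± 0.42 (SE, limma adjusted p = 0.984). Its dimmer probe (A_51_P415126) gave -0.17 ± 0.22 (SE, limma adjusted p = 0.799). Both Tgfa probes thus had fold changes smaller than their standard errors.

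Egf, made chiefly in kidney and salivary gland, had the lowest ratio to the reference of the 10 genes. It lay between -4.36 and -3.81 in Mdr1a-/- mice and between -4.31 and -4.17 on the arrays labelled FVB/N (probe A_52_P38627). The reference pool contains kidney, and its net Cy5 intensity on this probe was 39822 to 52903, against a net Cy3 intensity of 1038 to 1509 in colon. The fold change was 0.10 ± 0.15 (SE, limma adjusted p = 0.834).

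Nrg1 was measured by 5 probes. On the brightest (A_52_P52635) Mdr1a-/- mice had 0.18, 2.01, 2.17 and 0.40, against 0.61, 0.73, 0.45 and 0.40 on the arrays labelled FVB/N. Replicates 2 and 3 of the Mdr1a-/- mice were thus high (leaving out replicate 1, 2 or 3 of the Mdr1a-/- mice gave fold changes of 0.98, 0.37 and 0.31) and the other two were at about the lowest array labelled FVB/N or below it, and the fold change of 0.64 ± 0.44 did not pass (SE, limma adjusted p = 0.571). The other 4 probes did not show these high replicates: their fold changes ranged from -0.09 to 0.23, with adjusted p between 0.618 and 0.915 (limma). Which Nrg1 transcripts each probe detects was not settled here.

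The receptor Egfr was measured by 6 probes, and the transcript each belongs to was read from the files. By the accessions in the array files, probes A_52_P106259 and A_52_P674338 belong to transcript variant 1, which encodes the full-length receptor, and probes A_51_P392242 and A_52_P56471 to variant 2, which encodes a shorter form without the kinase. Probes A_52_P175190 and A_52_P5855 are annotated to cDNA clones of the gene. Where each probe lies on the transcripts was not stated.

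On the brightest variant 1 probe (A_52_P106259) Mdr1a-/- mice had -1.40, -0.11, -0.29 and -0.29, against -1.42, -1.09, -1.69 and -1.21 on the arrays labelled FVB/N. Replicates 2, 3 and 4 of the Mdr1a-/- mice lay above all arrays labelled FVB/N, and replicate 1 lay among them. The fold change was 0.83 ± 0.28 (SE, unadjusted p = 0.0156 by limma, adjusted p = 0.183), with a 95% interval of 0.20 to 1.47. It was 0.92 without replicate 2 of the arrays labelled FVB/N. It passed without replicate 1 of the Mdr1a-/- mice, at 1.12 ± 0.18 (SE, limma adjusted p = 0.0272), where 0.855% of all probes were called higher. That replicate was the lowest of its group on this probe, so leaving it out raises the fold change and narrows the spread. The pass is therefore not separate support. The other variant 1 probe (A_52_P674338) had -0.37, -0.58, -0.39 and -0.37 in Mdr1a-/- mice, against -0.55, -1.67, -0.72 and -1.11 on the arrays labelled FVB/N, with a fold change of 0.58 ± 0.23 (SE, limma adjusted p = 0.271). The value rests partly on replicate 2 of the arrays labelled FVB/N, the lowest array: without it the fold change was 0.37 ± 0.17 (SE, limma adjusted p = 0.4), and on scan day 2 alone it was 0.16. Here only replicate 2 of the Mdr1a-/- mice reached into the range of the arrays labelled FVB/N.

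The variant 2 probes gave no such pattern. A_51_P392242 ranged from -1.71 to -1.47 in Mdr1a-/- mice and from -1.89 to -1.57 on the arrays labelled FVB/N, with a fold change of 0.08 ± 0.13 (SE, limma adjusted p = 0.843). A_52_P56471 had a fold change of 0.01 ± 0.17 (SE, limma adjusted p = 0.99). The cDNA clone probes gave 0.25 ± 0.23 (A_52_P175190) and 0.33 ± 0.27 (A_52_P5855, above background on 1 array of each group).

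The mean of the variant 1 probes minus the mean of the variant 2 probes was 0.52, 1.26, 0.83 and 1.12 in Mdr1a-/- mice, against 0.39, 0.24, 0.25 and 0.21 on the arrays labelled FVB/N. The groups did not overlap in this difference, where 10.3% of all single probes did not overlap either. Replicate 1 was the lowest of the Mdr1a-/- mice. The means were 0.93 ± 0.33 in Mdr1a-/- mice and 0.27 ± 0.08 on the arrays labelled FVB/N (SD, n = 4 each), 0.66 apart. That difference lay between 0.55 and 0.80 when each array was left out in turn, was 0.43 with no background correction, and was 0.65 without replicate 2 of the arrays labelled FVB/N. This comparison was picked after the probes' values were seen, so no p is given. Its lack of overlap and its ranges describe those same values and are not separate support. The authors' deposited table gives 0.42 and 0.22 for the variant 1 probes of Egfr, 0.21 and 0.18 for the variant 2 probes, and 0.42 for the clone probe A_52_P175190, none with an adjusted p under 0.05. The second variant 1 probe is thus close to the variant 2 probes there, and the clone probe close to the first.

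**Figure D3:**
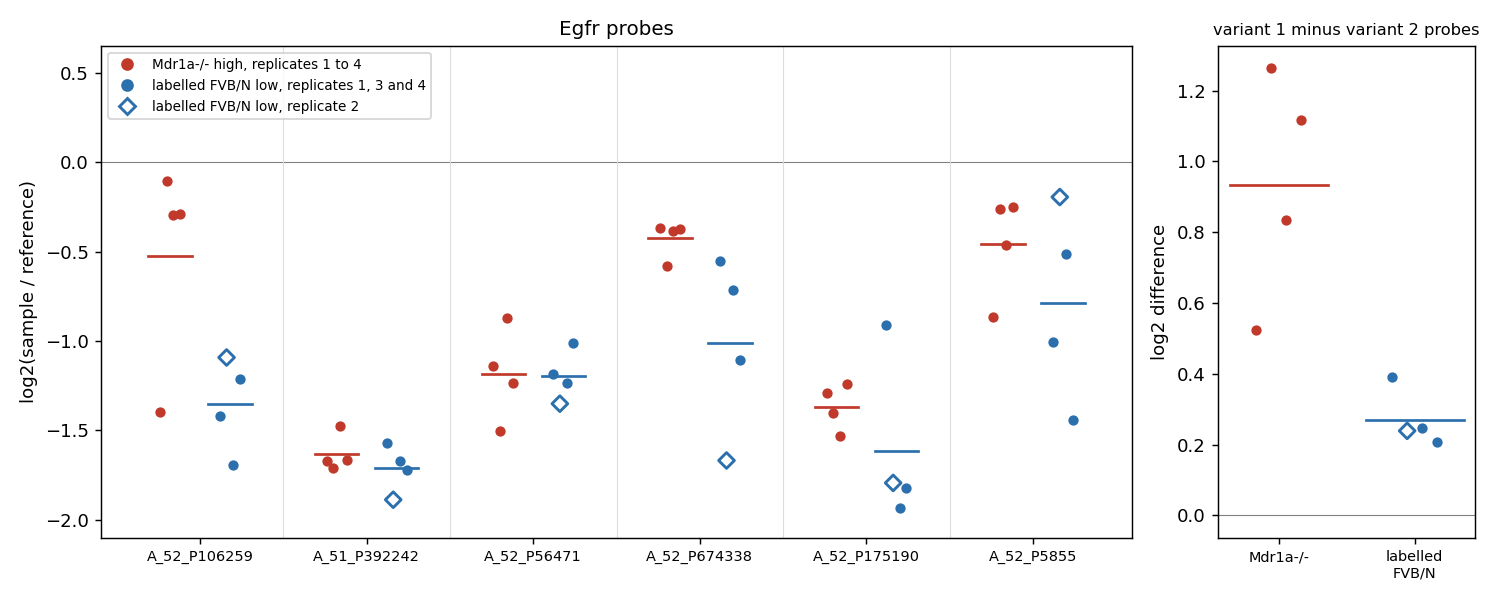
Left, log2(sample / reference) of the 6 Egfr probes on every array, Mdr1a-/- in red left of the arrays labelled FVB/N in blue, with group means as lines; right, the mean of the variant 1 probes (A_52_P106259, A_52_P674338) minus that of the variant 2 probes (A_51_P392242, A_52_P56471) per array. The 4 Mdr1a-/- points on the right, a comparison picked after values were seen, lie between 0.52 and 1.26. The arrays labelled FVB/N lie below, at 0.21 to 0.39.

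Errfi1 encodes a cytoplasmic protein that binds the active EGF receptor and blocks its kinase. Its log2 ratio (probe A_51_P382393) was -2.33, -2.24, -1.21 and -2.32 in Mdr1a-/- mice, against -1.76, 0.07, -2.21 and -1.95 on the arrays labelled FVB/N. Replicate 2 of the arrays labelled FVB/N was 1.28 above the highest other array, which was replicate 3 of the Mdr1a-/- mice, and the remaining arrays of both groups overlapped. The fold change was -0.56 ± 0.48 (SE, limma adjusted p = 0.67) over 8 arrays and -0.05 ± 0.29 (SE, limma adjusted p = 0.961) without that array. Without that array the 95% interval of the Errfi1 fold change ran from -0.73 to 0.62.

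Of the 10 genes, 0 were called higher and 0 lower over the 8 arrays, where 1.53% of all probes were called higher and 1.45% lower. At an unadjusted p under 0.05 (limma), 2 of the 22 probes passed, both of Egfr, against 14.9% of all probes. The median fold change was 0.07 over the 10 genes and 0.02 over all probes. All 10 brightest probes were above background on all 8 arrays, as were 16 of the 22 probes.

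Immediate early genes are switched on by ERK and stress signals, and 11 of 19 were highest on the same array. Egr1, a zinc finger factor induced through ERK, had 0.09, 1.04, 1.09 and 1.08 in Mdr1a-/- mice, against -0.68, 3.69, -0.85 and -0.14 on the arrays labelled FVB/N. As with Hbegf, the Mdr1a-/- mice lay between that array and its 3 companions. Fos had 0.36, 0.35, 0.09 and 0.72 in Mdr1a-/- mice, against -0.38, 2.44, -0.27 and 0.39 on the arrays labelled FVB/N. Atf3, a stress-induced factor, had 0.61, 0.52, -0.38 and 0.33 in Mdr1a-/- mice, against -0.22, 2.32, -0.32 and -0.05 on the arrays labelled FVB/N. These genes were named for their high value on that array, after values were seen.

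Over the 19 immediate early genes, the mean log2 ratio was 0.35, 0.55, 0.40 and 1.04 in Mdr1a-/- mice, against 0.05, 1.45, 0.14 and 0.03 on the arrays labelled FVB/N. Replicate 2 of the arrays labelled FVB/N was the highest of its group for 16 of the 19 genes and the highest of all 8 arrays for 11 of the 19. It exceeded all other arrays by more than 1 for 6 of the 19 (Fos, Jun, Egr1, Ier2, Atf3 and Zfp36). The list mean was thus highest on that array, but not every gene of the list was high there. Egr3 was lower there than on the other 3 arrays of its group. Egr2, Egr3, Ier3, Plaur and Ptgs2 were higher by over 0.5 on at least 1 Mdr1a-/- array. Of the 12 immediate early genes with a RefSeq promoter window, 0 held the exact letters TGACGTCA found at Areg and Errfi1. The share over all genes with a window was 2.03%. These letters were held by 1 of 17 feedback inhibitors, Dusp1, by 2 of 17 signal relay genes, Braf and Ptpn11, and by 0 of 2 ligand shedding genes. Other forms of the cyclic AMP response element were not searched.

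**Figure D4:**
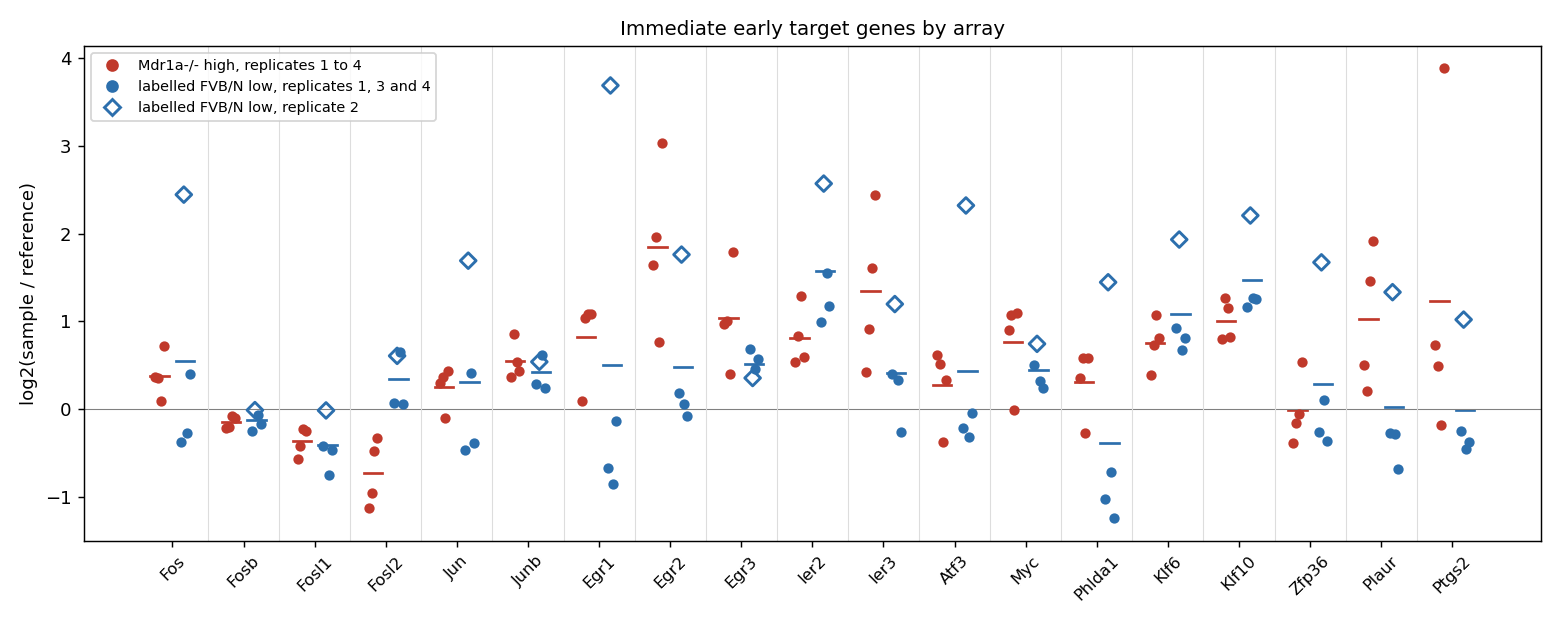
Log2(sample / reference) of 19 immediate early genes on every array, Mdr1a-/- in red left of the arrays labelled FVB/N in blue, with group means as lines. The open diamonds, replicate 2 of the arrays labelled FVB/N, are the top point for 11 of the 19 genes, with Egr1 at 3.69.

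The wider pathway was described through 72 measured genes in 6 lists chosen by role, other than the 10 above. Over the 8 arrays 0 of the 72 rose and 2 fell, Map2k1 and Fosl2, against 1.53% of all probes called higher and 1.45% called lower. At an unadjusted p under 0.05 (limma) there were 20 of the 72 genes, against 14.9% of all probes. Their median fold change was -0.06. Without replicate 2 of the arrays labelled FVB/N, 2 rose, Dusp6 and Phlda1, and 1 fell, Map2k1. In that fit 0.979% of all probes were called higher and 0.996% lower. Dusp6 and Phlda1 were each highest of their group on the array left out, which raises their fold changes.

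In the signal relay, 1 of 21 genes was called lower, against 1.45% of all probes. Map2k1, the gene for the kinase MEK1 that activates ERK, had 0.48, -0.14, 0.09 and 0.24 in Mdr1a-/- mice, against 1.33, 1.29, 1.17 and 1.15 on the arrays labelled FVB/N. The groups were well apart, and the fold change was -1.06 ± 0.16 (SE, limma adjusted p = 0.00892). It passed whichever of the 8 arrays was dropped, the highest adjusted p being 0.0340 (limma), and missed the threshold with scan day as a block, at -1.10 (limma adjusted p = 0.0693). Mapk3, the gene for the kinase ERK1, had a fold change of -0.62 ± 0.17 and did not pass (SE, limma adjusted p = 0.0982).

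Among the other receptors, 0 of 3 were called, against 1.53% of all probes called higher and 1.45% called lower. Erbb2, the shared partner of the ligand-binding receptors, had -0.29, 0.46, -0.49 and -0.05 in Mdr1a-/- mice, against 0.62, 0.54, 1.23 and 0.78 on the arrays labelled FVB/N. No array overlapped between the groups, and the fold change of -0.89 ± 0.24 did not pass (SE, limma adjusted p = 0.0881). Erbb3, a neuregulin receptor, had a fold change of -0.77 ± 0.26 (SE, limma adjusted p = 0.178). Of the other neuregulins 0 of 3 were called, against the same shares of all probes. Nrg3 was above background on 0 Mdr1a-/- arrays and 2 arrays labelled FVB/N, so its fold change of -0.70 is not used. Nrg4 gave -0.07 ± 0.14 (SE, limma adjusted p = 0.885).

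Of the ligand shedding genes 0 of 6 were called, against 1.53% of all probes called higher and 1.45% called lower. Adam17, the protease that releases amphiregulin, HB-EGF and TGF-alpha, had 0.80, 0.96, 0.66 and 1.38 in Mdr1a-/- mice, against 0.50, -0.05, 0.12 and 0.01 on the arrays labelled FVB/N. The groups did not overlap, and the fold change of 0.80 ± 0.20 missed the threshold (SE, limma adjusted p = 0.0678). Adam9, a related protease, gave 0.70 ± 0.21 (SE, limma adjusted p = 0.123).

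Of 20 measured feedback inhibitors 0 were called over the 8 arrays, against 1.53% of all probes called higher and 1.45% called lower. Dusp6, which dephosphorylates ERK and is a standard readout of its activity, had 0.57, 0.79, 0.24 and 1.08 in Mdr1a-/- mice, against -0.63, 0.39, -0.69 and -0.55 on the arrays labelled FVB/N. Its fold change was 1.04 ± 0.27 (SE, limma adjusted p = 0.0859) and passed without replicate 2 of the arrays labelled FVB/N, at 1.29 ± 0.21 (SE, limma adjusted p = 0.0246). Dusp4, a nuclear ERK phosphatase, gave 0.93 ± 0.32 (SE, limma adjusted p = 0.198). Dusp1, an immediate early phosphatase, was the only one of the 20 to exceed all other arrays by more than 1 on replicate 2 of the arrays labelled FVB/N, at 1.94. Its fold change was -0.02 ± 0.50 (SE, limma adjusted p = 0.991).

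Among the immediate early genes 1 of 19 was called lower over the 8 arrays, against 1.45% of all probes. In that list 0 were called higher, against 1.53% of all probes. Fosl2, an AP-1 subunit, had -1.13, -0.96, -0.48 and -0.33 in Mdr1a-/- mice, against 0.06, 0.60, 0.65 and 0.05 on the arrays labelled FVB/N. The groups did not overlap, and the fold change was -1.07 ± 0.23 (SE, limma adjusted p = 0.0423). Dropping any 1 array other than replicate 3 of the Mdr1a-/- mice ended that call, in 7 of 8 cases, the highest adjusted p being 0.123 (limma). Egr2 gave 1.37 ± 0.52 and did not pass (SE, limma adjusted p = 0.244). Phlda1, a pleckstrin homology protein induced by ERK, had 0.35, 0.58, -0.28 and 0.58 in Mdr1a-/- mice, against -1.03, 1.44, -0.72 and -1.25 on the arrays labelled FVB/N. It gave 0.69 ± 0.53 over 8 arrays and rose by 1.30 ± 0.25 (SE, limma adjusted p = 0.0401) without replicate 2 of the arrays labelled FVB/N.

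Genes whose log2 ratios ran most like those of Areg, Hbegf and Errfi1 over the 8 arrays were listed as a description. Nearest to Hbegf were Nr4a1, an immediate early nuclear receptor, with a Pearson correlation of 0.99 over 8 arrays, then Egr1 with 0.98 and Trim10 with 0.97. Nearest to Areg were Ube2b, Rgs11 and Ptgir, the prostacyclin receptor, with 0.97, 0.97 and 0.96. Nearest to Errfi1 were Cib2, Klf6 and Slitrk2, with 0.99, 0.96 and 0.96. The arrays share the reference pool, and the correlations include the array that stood apart. Without it they were 0.98, 0.94 and 0.93 for the Hbegf neighbours, 0.94, 0.95 and 0.95 for those of Areg, and 0.93, 0.80 and 0.90 for those of Errfi1, over 7 arrays. Nr4a1 had -0.89, 0.22, 0.05 and -0.04 in Mdr1a-/- mice, against -0.85, 1.75, -1.13 and -0.78 on the arrays labelled FVB/N, and was highest on the same array as Hbegf.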

How the data were processed

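Sample RNA was labelled with Cy3 and co-hybridised with a pooled Cy5 reference on 8 arrays, without dye swaps (labels' protocols). For every spot the authors deposited the mean intensity and the mean local background of each channel, together with a log2 ratio that they had normalized by loess, per the file headers. Subtracting the background and running loess on Cy5 over Cy3 returned that ratio to within 3e-13, so it is reference over sample; the deposited description says the opposite, and the sign was turned where used. The authors' deposited table holds log2 fold changes, t scores, p-values and adjusted p-values. Limma is named, without a version, in the submitters' processing notes. The deposited description calls the table's fold changes log10; they are read as log2 because their slope on log2 fold changes without background correction was 0.87.

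Intensities were background-corrected by normexp (offset 50) and loess-normalized (control spots at weight 0) in limma 3.58.1 and R 4.3.3. Averaging the spots of a probe left 41174 probes. The groups were then tested two-sided with lmFit and eBayes, with no covariates, and p-values were adjusted by Benjamini-Hochberg over all probes, with calls at an adjusted p under 0.05. The scripts were tested on simulated data. On an array, a probe counted as above background if its net Cy3 signal was over the 95th percentile of the 314 negative controls. The brightest probe in Cy3 stands for a gene. The 4 arrays per group limit the precision, and p-values measure the spread between these mice.

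The genes and lists were chosen with earlier results of these data known. The naming rule takes every probe of the 10 genes, every called pathway gene, and the 2 genes with the smallest p in lists with fewer than 2 called. Since none of the 10 was called, the members whose most similar genes are given, and the other genes named for replicate 2 of the arrays labelled FVB/N, were chosen after values were seen. Alternatives were other background corrections and normalizations, array weights, a filter on dim probes, scan day, a replicate block and each array left out.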

Additional observations from a re-analysis of the deposited data

Results flagged for a closer look

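In each group of 4 arrays, the gap of the highest or lowest array to its nearest neighbour was compared with the group's range. For 7 of 44 groups the share was above Dixon's 95% critical value, which chance exceeds in about 1 in 20 groups. On the arrays labelled FVB/N, Areg had replicate 2 at 4.74, where the others lay between 0.57 and 0.74, and Hbegf had replicate 2 at 2.63, where the others lay between -1.01 and -0.50. Errfi1 had Mdr1a-/- replicate 3 at -1.21, above the others at -2.33 to -2.24. Egfr had Mdr1a-/- replicate 1 at -1.40 on probe A_52_P106259, below the others at -0.29 to -0.11. Egfr also had Mdr1a-/- replicate 2 at -0.58 on probe A_52_P674338, where the others lay between -0.39 and -0.37. On probe A_52_P175190 the array labelled FVB/N replicate 1 was at -0.91, where the others lay between -1.93 and -1.79. Btc had the array labelled FVB/N replicate 1 at 0.063 on the dim probe A_51_P138429, below the others at 0.63 to 0.73.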

How the results depend on the processing

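Over 438 values of the 22 probes under the alternatives, 391 kept their direction and their side of the threshold, 38 changed sign, 7 moved by more than the spread between replicates and 2 passed the threshold, Areg without replicate 2 of the arrays labelled FVB/N and Egfr (A_52_P106259) without Mdr1a-/- replicate 1. All sign changes were in fold changes that passed under no setting. With median centring in place of loess, Ereg (A_51_P157223) was -0.059, Tgfa (A_52_P555423) -0.043 and Nrg1 (A_52_P328064) -0.0023. With array weights, Hbegf was 0.085, Tgfa (A_52_P555423) -0.14, Nrg1 (A_52_P369769) 0.042 and Egfr (A_52_P56471) -0.040. Hbegf was 0.097 when scan day was a block. On scan day 2 alone Ereg (A_51_P171215) was 0.039, Btc -0.22 and 0.026, Hbegf 0.73, Nrg1 (A_52_P369769) 0.060, and Egfr -0.070 and -0.11 on its variant 2 probes. On scan day 3 alone, with no test, Ereg (A_51_P157223) was -0.10, Tgfa -0.99 and 0.28, and Nrg1 -0.063, -0.043 and -0.35 on probes A_52_P158772, A_52_P328064 and A_52_P369761. The 7 that moved were all on scan day 3 alone: Ereg (A_51_P171215) -1.09, Btc (A_51_P138429) -0.71, Egf 0.21, Nrg1 1.61 (A_52_P52635) and -0.69 (A_52_P369769), and Egfr 0.33 and 0.31 on its variant 2 probes. With 1 array left out, the ranges that crossed 0 were -0.0026 to 0.11 for Ereg (A_51_P157223), -0.21 to 0.26 for Btc (A_52_P672689), -0.45 to 0.76 for Hbegf, -0.0076 to 0.18 for Egf, -0.35 to 0.23 for Tgfa (A_52_P555423), -0.053 to 0.25 for Nrg1 (A_52_P328064), -0.30 to 0.065 for Nrg1 (A_52_P369769) and -0.10 to 0.11 for Egfr (A_52_P56471).

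Probes called higher and lower numbered 628 and 598, and 1081 and 939 with array weights, 133 and 115 when scan day was a block, and 0 and 0 on scan day 2 alone, which holds 4 arrays. Leaving out 1 array gave 250 to 783 higher and 247 to 675 lower. Of the 10 genes 0 to 1 were then called higher and 0 lower. Of the pathway genes 0 to 2 were then called higher and 1 to 3 lower. Pathway genes called higher were 3 with array weights and 1 without dim probes, and those called lower were 1 with median centring, 0 when scan day was a block and 0 on scan day 2 alone. The cause of these changes was not tested. The fits on scan day 2 alone and those without 1 array also used fewer arrays.

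Groups share replicate numbers. Same-numbered arrays deviated together with correlations of 0.06, 0.11, 0.03 and -0.03, and 0 of 4 correlated best with their own number, so the numbers were not taken as pairs. The replicate block gave 310 probes higher and 286 lower, 1 pathway gene lower, and 0 of the 10 genes called.

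Intensities limit what can be said of the dim probes: 20 of the 22 were above background on at least 4 arrays. Ratios say nothing of levels between genes, and a dye effect on a probe stays in each ratio, since no dyes were swapped.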
